A study of Mus musculus with 49 samples.

Results

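Immediate early genes are the genes that a neuron transcribes within minutes of being driven, and 10 of them were followed in mouse hippocampus that lacked endophilin A proteins. They were taken by name as the classic fast activity-induced genes Fos, Fosb, Junb, Egr1, Egr2, Egr3, Egr4, Npas4, Nr4a1 and Arc, and all 10 were found among the 38355 genes of the count table. Endophilin A proteins bend and recruit membrane in clathrin-mediated endocytosis at synapses, and their genes are Sh3gl2 for A1, Sh3gl1 for A2 and Sh3gl3 for A3. Polyadenylated RNA of hippocampus was sequenced in 49 libraries of 6 untreated groups. The older groups, at postnatal day 13 to 21, were 7 double knockouts of A1 and A2 (DKO), 7 littermates of these (KOWT) and 10 wild types (WT-DKO). The newborn groups, at postnatal day 0, were 9 triple knockouts of A1, A2 and A3 (TKO), 8 littermates (KOWTKO) and 8 wild types (WT-TKO). The labels spell out no genotype for the littermates, whose libraries are described below by their endophilin counts. The day of each animal within the older age range is not given in the sources used here, and a growth label gives every sample as newborn, against the age label that was used. Nothing in the labels ties a library to an animal of its own, and the p-values therefore rest on the spread between libraries, which may be technical.

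Calcium entering through synaptic receptors and channels activates kinases that phosphorylate transcription factors already bound at these genes, such as CREB and the serum response factor, so that no new protein is needed for the first wave. Fos, Fosb and Junb encode subunits of the dimeric factor AP-1, the 4 Egr genes encode zinc finger factors, Npas4 a neuronal basic helix-loop-helix factor and Nr4a1 an orphan nuclear receptor. Arc encodes a synaptic protein that binds endophilin and dynamin and promotes the endocytosis of AMPA receptors. The mRNAs are short-lived, which is why they are used in hippocampus as markers of recent activity.

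RefSeq promoter entries of GRCm38.p6 were used for 7 of the 10 genes, and the 250 bases before 1 annotated start are shown for 4 of them, chosen as 1 AP-1, 2 EGR and 1 nuclear receptor gene that fell together below. None of the 4 stretches overlaps an annotated exon of its gene. Capitals mark the CRE core TGACG on either strand and, in Egr2, also a CArG box, the motif of the serum response factor.
Fos, chr12:85473640-85473889, plus strand: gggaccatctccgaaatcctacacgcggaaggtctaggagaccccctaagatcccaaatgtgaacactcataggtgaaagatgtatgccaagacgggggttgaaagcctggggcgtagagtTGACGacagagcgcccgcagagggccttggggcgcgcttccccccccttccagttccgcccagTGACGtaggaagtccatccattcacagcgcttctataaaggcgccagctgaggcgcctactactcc
Egr2, chr10:67537619-67537868, plus strand: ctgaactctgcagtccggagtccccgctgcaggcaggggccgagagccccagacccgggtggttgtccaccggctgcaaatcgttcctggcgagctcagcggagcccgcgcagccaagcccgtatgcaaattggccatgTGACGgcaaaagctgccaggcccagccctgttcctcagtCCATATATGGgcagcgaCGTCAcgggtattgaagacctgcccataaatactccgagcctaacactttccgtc
Egr4, chr6:85513590-85513839, minus strand: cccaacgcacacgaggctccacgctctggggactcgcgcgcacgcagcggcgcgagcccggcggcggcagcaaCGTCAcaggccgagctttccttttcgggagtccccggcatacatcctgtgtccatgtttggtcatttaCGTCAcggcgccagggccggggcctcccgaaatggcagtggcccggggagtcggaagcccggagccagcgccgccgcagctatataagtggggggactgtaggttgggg
Nr4a1, chr15:101266596-101266845, plus strand: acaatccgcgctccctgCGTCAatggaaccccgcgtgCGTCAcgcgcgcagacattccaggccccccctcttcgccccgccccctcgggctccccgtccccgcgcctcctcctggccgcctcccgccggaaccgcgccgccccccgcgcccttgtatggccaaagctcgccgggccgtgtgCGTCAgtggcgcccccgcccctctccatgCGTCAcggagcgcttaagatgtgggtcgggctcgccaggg
The CRE core occurred 2 times each in the windows shown for Fos, Egr2 and Egr4 and 4 times in that for Nr4a1. It occurred at least 1 time before Fosb, Junb and Npas4, but all 250 bases of the Npas4 window are annotated exon. Other Egr2 entries differed. The window from 67535249 held neither motif, and that from 67537316 held a CArG box and no CRE core. Those from 67537620 and 67537680, which overlap the window shown, held both. Among all 32851 promoter entries, 17.8% held it in the same 250 bases and 1.47% held a CArG box. The whole CRE TGACGTCA (1.55% of entries), the AP-1 motif TGANTCA (6.75%) and the EGR motif GCGTGGGCG (0.536%) were in none of the entries of these 7 genes. Such a match describes the letters of the window and shows no binding.

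Libraries held 13.1 M to 57.0 M reads on genes (M, mega). Sh3gl1 averaged 0.791 ± 0.287 CPM in DKO against 59.4 ± 4.94 in KOWT and 58.2 ± 2.92 in WT-DKO (CPM, counts per M reads on genes; ± SD over libraries). Sh3gl2 averaged 40.1 ± 2.31 CPM in DKO and 39.6 ± 1.40 in the libraries labelled KOWT, against 432 ± 24.5 in WT-DKO, and the KOWTKO libraries were low in Sh3gl2 and Sh3gl3. KOWTKO replicate 3 had 33.7 CPM of Sh3gl1, against 64.5 to 83.3 CPM in the other KOWTKO libraries. Comparisons with littermates therefore set the loss of Sh3gl1 against its presence. Sh3gl3 was at 6.52 to 15.7 CPM in DKO replicates 5 and 6 and KOWT replicates 4, 5 and 6. Markers of hippocampal excitatory neurons were detected in every group, all 12 of 12. The 10 choroid plexus genes, which mark the epithelium beside the hippocampus, were detected too and summed to over 500 CPM in DKO replicates 1, 2, 5 and 7, KOWT replicates 3, 5 and 7 and WT-DKO replicates 1 and 9. In WT-TKO replicate 8 the 12 myelin genes summed to 1005 CPM, against a group median of 83.0. KOWTKO replicate 7 had 86.8 alignments that were not unique per 100 reads on genes, the most of all libraries.

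At day 13 to 21, DKO hippocampus had less mRNA than KOWT of every one of the 10 genes (edgeR's quasi-likelihood test, Benjamini-Hochberg adjusted p under 0.05 over 16114 genes), while 10.6% of all genes tested were called lower and 10.2% higher. Their median log2 fold change was -1.45, against 0.00 for all genes. The call depended on which libraries entered. Without the 9 older libraries rich in choroid plexus genes, 3 DKO and 4 KOWT libraries were left. All 10 were still negative there with a median of -0.72, but 2 were called, Fosb (-1.55) and Egr3 (-0.64). This subset is smaller, and its calls over all genes are not given, so the drop in calls may not be particular to these genes. In the choroid-rich libraries alone, 4 DKO against 3 KOWT, all 10 were negative again with a median of -1.95. There edgeR called 0 of 10 and 7 genes in all, and all 10 had an unadjusted p under 0.05. KOWT replicates 3 and 7, both choroid-rich, were also the 2 KOWT libraries highest in Fos. Cell type markers were called in the same comparison. Of 10 meningeal genes, 5 were called higher in DKO than in KOWT (Slc6a20a, Col1a1, Col3a1, Col1a2 and Foxc1, log2 fold changes 0.36 to 1.09), and the list summed to 340 to 700 CPM in DKO against 258 to 380 CPM in KOWT. Of 12 markers of excitatory neurons, Wfs1 (-1.08) and Spink8 (-0.52) were called lower, while the list summed to a median of 3792 CPM in DKO against 3706 CPM in KOWT. Of 9 markers of inhibitory neurons, Pvalb (-0.55) and Sst (-0.40) were called lower and Gad2 (0.36) higher. None of 6 astrocyte, 7 microglia and 6 endothelial genes was called. The part of these cells in the lower levels was not tested. Less RNA per neuron and fewer neurons of a type cannot be told apart in bulk tissue.

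**Figure D1:**
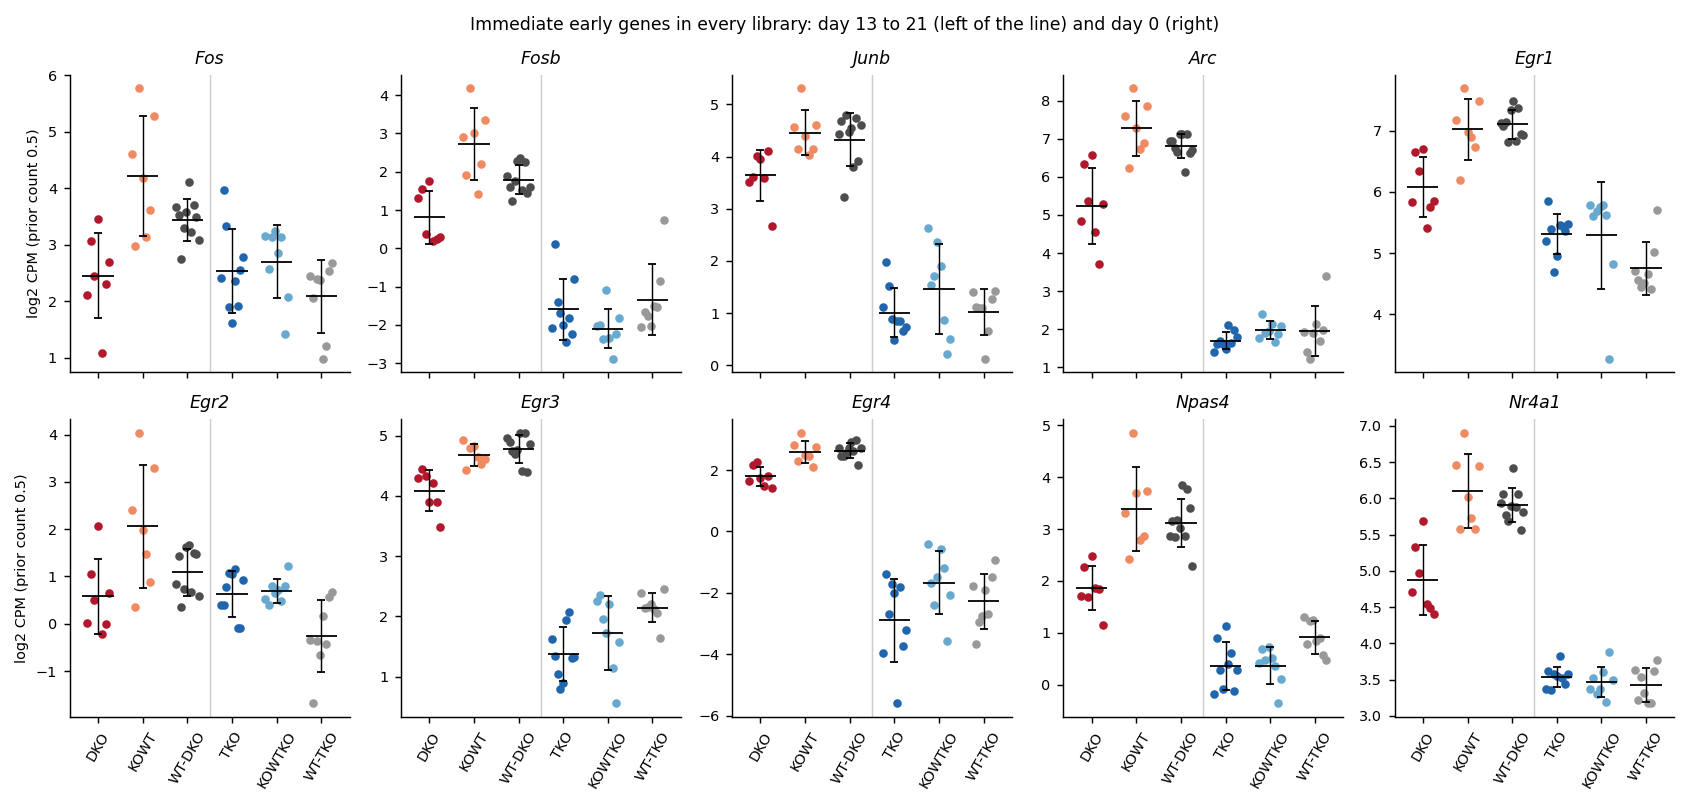
Level of each gene in every library (points, log2 CPM with a prior count of 0.5), with the group mean (bar) and SD (whiskers). DKO points sit low among the day 13 to 21 groups left of the line, KOWT points spread widely for Fos, Fosb, Egr2 and Npas4, and the 3 newborn groups right of the line overlap.

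With all libraries, the AP-1 genes Fosb and Fos had the most negative log2 fold changes of the 10. Fos (ENSMUSG00000021250, mm10 chromosome 12, 85473890 to 85477273) had a lowest, median and highest level of 2.10, 5.43 and 11.0 CPM in DKO, against 7.82, 18.2 and 54.8 CPM in KOWT. It was below every KOWT library in 5 of 7 DKO libraries and 3.82-fold lower by the fit (log2 fold change -1.93 ± 0.38 SE, adjusted p = 0.00137). Fosb (ENSMUSG00000003545, chromosome 7, 19302696 to 19310051), whose product forms the same dimers as Fos, had 1.12, 1.28 and 3.37 CPM in DKO, against 2.67, 7.51 and 18.2 CPM in KOWT. Its log2 fold change was -1.98 ± 0.34 (adjusted p = 0.000353), with 5 of 7 DKO libraries below all KOWT libraries. Junb (ENSMUSG00000052837, chromosome 8, 84974484 to 84978718), an AP-1 partner, changed less. It had 6.38, 12.2 and 17.3 CPM in DKO, against 16.4, 21.0 and 39.7 CPM in KOWT (log2 fold change -0.82 ± 0.24, adjusted p = 0.0163). The exons of Junb share 173 bases with those of Prdx2 on the other strand, over which this unstranded kit cannot tell their reads apart.

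All 4 EGR zinc finger genes fell. With all libraries Egr2 had the most negative log2 fold change and Egr3 the least, an order that turned without the choroid-rich libraries (-0.43 for Egr2, not called, and -0.64 for Egr3). Egr1 (ENSMUSG00000038418, chromosome 18, 34859823 to 34864984), the most abundant of the 4, had 42.7, 57.7 and 104 CPM in DKO, against 73.2, 126 and 208 CPM in KOWT. Its log2 fold change was -0.94 ± 0.21 (adjusted p = 0.00299). Egr2 (ENSMUSG00000037868, chromosome 10, 67535475 to 67542188) had 0.838, 1.41 and 4.17 CPM in DKO, against 1.27, 3.94 and 16.4 CPM in KOWT. For Egr2, 3 of 7 DKO libraries lay below all KOWT libraries, the fewest for any of the 10 genes (log2 fold change -1.74 ± 0.46, adjusted p = 0.0105). Egr3 (ENSMUSG00000033730, chromosome 14, 70077203 to 70082614) had 11.2, 18.6 and 21.9 CPM in DKO, against 21.5, 24.9 and 30.4 CPM in KOWT. The fold change of Egr3 was small but its spread was narrow, and 6 of 7 DKO libraries lay below all KOWT libraries (-0.57 ± 0.12, adjusted p = 0.00161). Egr4 (ENSMUSG00000071341, chromosome 6, 85511121 to 85513589) had 2.66, 3.33 and 4.79 CPM in DKO, against 4.29, 5.57 and 9.28 CPM in KOWT, a log2 fold change of -0.81 ± 0.16 (adjusted p = 0.000834).

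The remaining factors and the synaptic effector were lower as well. Npas4 (ENSMUSG00000045903, chromosome 19, 4984355 to 4990316), which neurons induce through calcium influx, had 2.21, 3.56 and 5.59 CPM in DKO, against 5.34, 9.88 and 29.0 CPM in KOWT. All but 1 of the 7 DKO libraries lay below every KOWT library (log2 fold change -1.67 ± 0.31, adjusted p = 0.000715). Nr4a1 (ENSMUSG00000023034, chromosome 15, 101254269 to 101274795) had 21.2, 26.0 and 51.7 CPM in DKO, against 47.6, 65.0 and 120 CPM in KOWT, with 6 of 7 DKO libraries below all KOWT libraries. Its log2 fold change was -1.23 ± 0.22 (adjusted p = 0.000464). Arc (ENSMUSG00000022602, chromosome 15, 74669083 to 74672570), the synaptic endophilin partner, had 13.2, 38.7 and 95.7 CPM in DKO, against 75.5, 155 and 321 CPM in KOWT. Arc was 3.70-fold lower by the fit (log2 fold change -1.89 ± 0.36, adjusted p = 0.00108). For none of the 10 genes were DKO and KOWT fully apart, a separation that 1.92% of all genes tested showed in this direction. In the authors' deposited table of this comparison all 10 also had a negative log2 fold change with an adjusted p under 0.05, between -1.68 for Arc and -0.62 for Egr3.

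**Figure D2:**
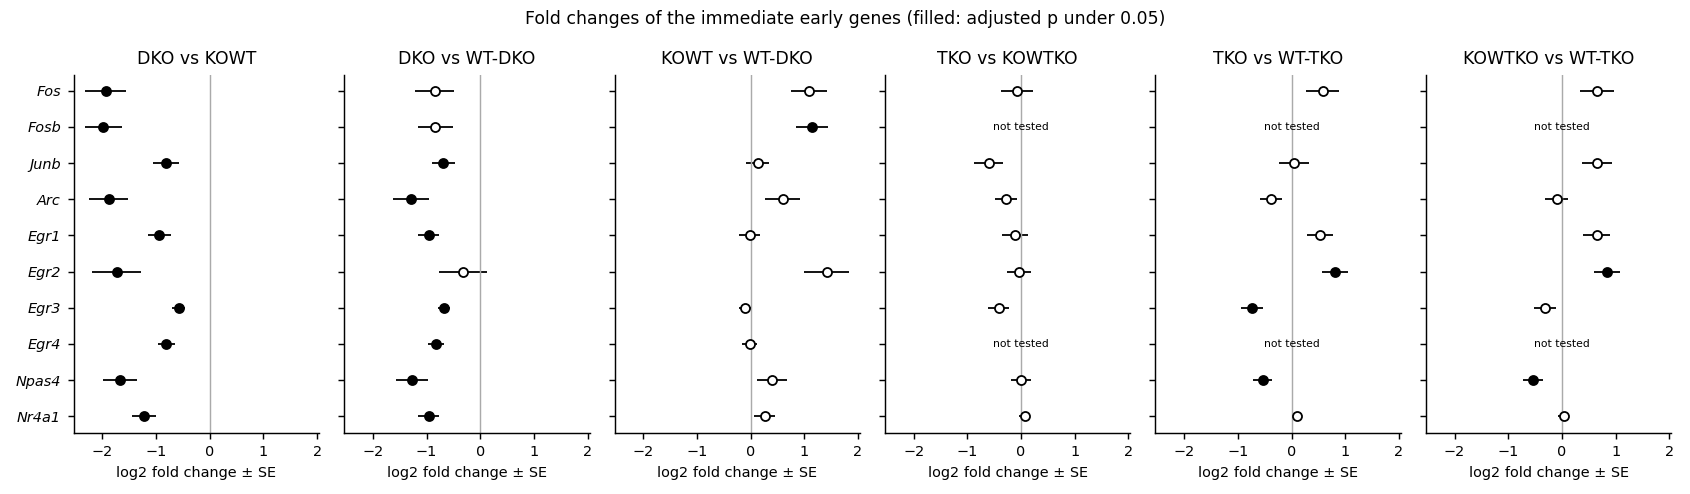
Log2 fold change with its SE for each gene in the 6 comparisons within an age; filled points have an adjusted p under 0.05 and "not tested" marks genes that failed the filter on low counts. DKO lies left of zero for all 10 genes against both control groups. In TKO against KOWTKO, 6 of 8 genes lie left of zero, with Junb (-0.60) and Egr3 (-0.42) the farthest.

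Against the separate wild types 7 of 10 genes were called lower in DKO, where 13% of all genes tested were called lower and 13.1% higher. The median log2 fold change was -0.85, and no test set it against that of the comparison with KOWT. Egr1 was the gene whose groups did not overlap, with at most 104 CPM in DKO against at least 112 CPM in WT-DKO (log2 fold change -0.96 ± 0.19, edgeR adjusted p = 0.00103). Such a separation was seen in 1.62% of all genes. Arc had a median of 38.7 CPM in DKO against 115 CPM in WT-DKO (-1.29 ± 0.33, adjusted p = 0.00768), and Npas4 3.56 CPM in DKO against 8.45 CPM in WT-DKO (-1.27 ± 0.29, adjusted p = 0.00284). Nr4a1 (-0.96 ± 0.20), Egr4 (-0.83 ± 0.15), Junb (-0.69 ± 0.22) and Egr3 (-0.68 ± 0.11) were called lower as well. Fos (-0.85 ± 0.36, adjusted p = 0.0900), Fosb (-0.84 ± 0.33, adjusted p = 0.0611) and Egr2 (-0.32 ± 0.45, adjusted p = 0.634) did not pass. Without the choroid-rich libraries 5 of 10 were called lower and the median was -0.78. The calls over all genes in that smaller subset are not given here. The authors' deposited table against wild types had 9 of 10 lower with an adjusted p under 0.05, all but Egr2. DKO libraries are shared by this comparison and that with KOWT, so the 2 sets of values are not independent.

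The littermates and the wild types differed for 1 of the 10 genes. Fosb was higher in KOWT, with a median of 7.51 CPM in KOWT against 3.16 CPM in WT-DKO (log2 fold change 1.14 ± 0.30, edgeR adjusted p = 0.0266), where 2.33% of all genes tested were called higher. Egr2 (1.41 ± 0.42, adjusted p = 0.0507) and Fos (1.08 ± 0.34, adjusted p = 0.0708) did not pass. The call of Fosb was lost without KOWT replicate 3 or KOWT replicate 7. For Fos, Fosb, Egr2 and Arc, 4 of 7 KOWT libraries lay above every WT-DKO library. Without the choroid-rich libraries, KOWT replicates 3 and 7 among them, edgeR called 0 of 10 in this comparison (1 with an unadjusted p under 0.05) and the median log2 fold change was -0.03, against 0.33 with all libraries.

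**Figure D3:**
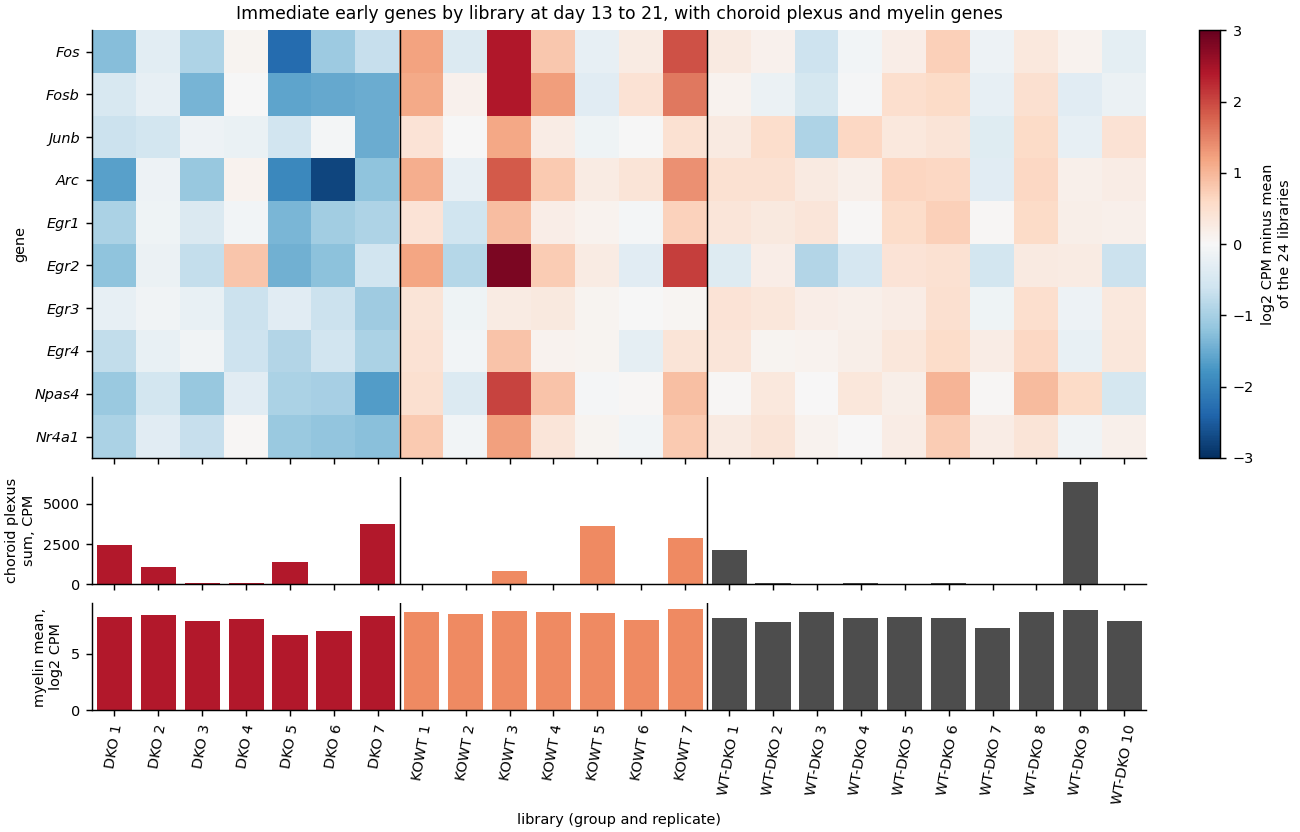
Each gene (rows) in each of the 24 libraries at day 13 to 21 (columns), coloured by log2 CPM minus the gene's mean over these libraries, above bars of the summed CPM of 10 choroid plexus genes and the mean log2 CPM of 12 myelin genes. KOWT replicates 3, 7 and 1 are the reddest columns, DKO replicates 5, 6 and 7 are blue for most genes, and choroid plexus genes are high in 4 DKO, 3 KOWT and 2 WT-DKO libraries.

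Levels in DKO and KOWT were also set side by side within the choroid-poor and within the choroid-rich libraries. No test set these strata against each other. Arc ranged from 13.2 to 95.7 CPM in the 3 choroid-poor DKO libraries, against 75.5 to 192 CPM in the 4 choroid-poor KOWT libraries, and from 23.3 to 81.0 CPM in the 4 choroid-rich DKO libraries against 106 to 321 CPM in the 3 choroid-rich KOWT libraries. Without the choroid-rich libraries its log2 fold change was -1.40, and that of Fos was -1.10, neither of them called. Fosb ranged from 1.16 to 3.37 CPM in choroid-poor DKO against 3.74 to 8.09 CPM in choroid-poor KOWT. It was apart there, as were Junb and Egr3, so that 3 of 10 genes were apart with DKO lower, against 11.5% of all genes in these libraries. In the choroid-rich libraries 9 of 10 were apart, all but Fosb, against 5.78% of all genes. Egr2 ranged from 0.972 to 4.17 CPM in choroid-poor DKO against 1.27 to 5.26 CPM in choroid-poor KOWT, which overlapped widely (log2 fold change -0.43, not called). The summed choroid plexus genes reached a median of 1053 CPM in DKO against 34.7 CPM in KOWT and 40.6 CPM in WT-DKO, with highest values of 3752 CPM in DKO, 3600 CPM in KOWT and 6349 CPM in WT-DKO. None of the 10 choroid plexus genes was called between DKO and KOWT. In DKO, choroid-rich replicates 7 and 5 were the lowest of their group in 5 and 4 of the immediate early genes. Choroid-poor DKO replicate 4 was the highest in 7. WT-DKO replicate 9, the richest, was the lowest of its group in 3 of the immediate early genes and choroid-rich KOWT replicate 3 the highest in 9, while choroid-poor WT-DKO replicate 3 was the lowest in 4 and choroid-poor KOWT replicate 2 the lowest in 7. The part of choroid plexus content in the lower levels was not tested. Of the 12 myelin genes, 5 were called lower in DKO than in KOWT and 1, Trf, lower than in WT-DKO. Their summed level had a median of 13147 CPM in DKO, 16855 CPM in KOWT and 12131 CPM in WT-DKO. With the myelin mean as a covariate, 7 of the 10 immediate early genes were called lower with a median of -1.01, and Junb, Egr1 and Egr2 did not pass. Within the libraries low in Sh3gl3, 2 DKO against 3 KOWT, 9 of 10 were called lower with a median of -1.31, and without them 10 of 10 with a median of -1.58.

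**Figure D4:**
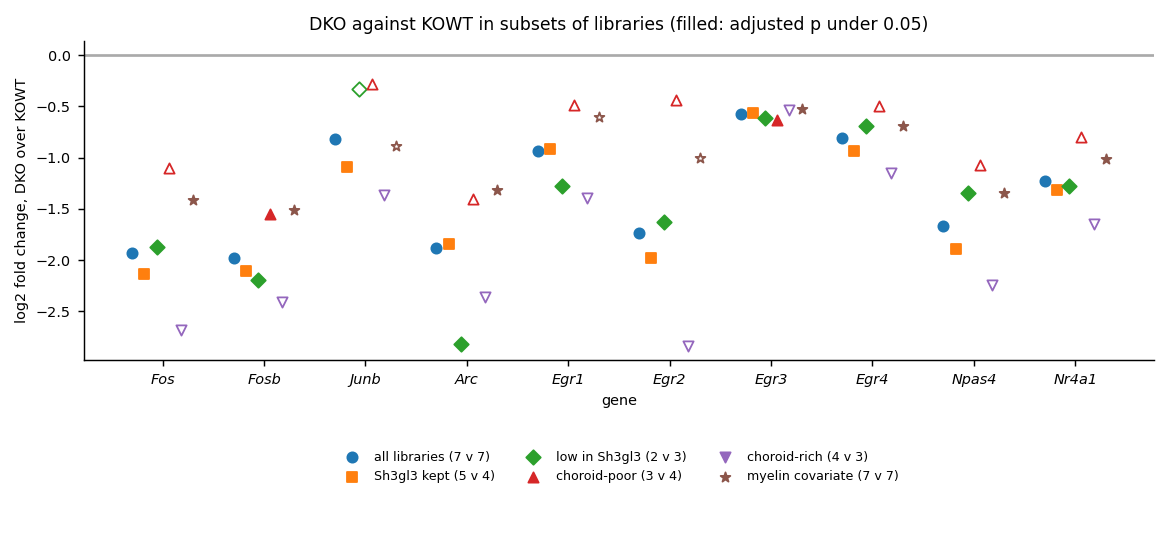
Log2 fold change of DKO over KOWT for each gene with all libraries, in subsets of libraries and with myelin as a covariate (symbols, with the number of DKO and KOWT libraries); filled symbols have an adjusted p under 0.05. Every symbol lies below zero, and the choroid-poor subset keeps filled symbols for Fosb and Egr3.

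Libraries of 1 group differed more in these genes than in others. In DKO the median SD of log2 CPM was 0.488 over the 10 genes, against 0.217 over all genes tested. The same medians were 0.615 against 0.166 in KOWT and 0.340 against 0.146 in WT-DKO. Those medians take no account of level. Among genes of like level (mean log2 CPM within 0.5), SDs in DKO ran from percentile 50.3 for Egr4 to 99.9 for Arc. In newborn TKO they ran from percentile 19.2 for Nr4a1 to 99.5 for Fos over the 8 genes tested. In KOWT, Egr2 (SD 1.30) and Fos (SD 1.06) varied most and Egr3 least (SD 0.18). DKO replicate 4 was the highest of its group in 7 genes, and its Fos of 11.0 CPM exceeded that of KOWT replicate 2 (7.82 CPM) and KOWT replicate 5 (8.79 CPM).

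Levels of the genes varied together between the libraries of KOWT. Fos and Arc had a Pearson r of 0.985 (exact permutation p = 0.000198, the smallest that 7 libraries allow; adjusted 0.0107 over 54 relations) and a Spearman rho of 1.0 (exact permutation p = 0.000397, adjusted 0.0187), n = 7. Without the 2 libraries farthest from the median of Fos, r was 0.992. By Pearson's r, 8 of 9 partners of Fos had an adjusted permutation p under 0.05 in KOWT, all but Egr3 (r 0.572, rho 0.536, exact permutation p = 0.185 for r and 0.236 for rho, adjusted 0.303 and 0.364). In DKO there were 2 of 9, Egr1 (r 0.875, rho 0.929) and Egr2 (r 0.882, rho 0.964), and in WT-DKO 3 of 9, Fosb (r 0.814, rho 0.806), Egr2 (r 0.834, rho 0.891) and Npas4 (r 0.725, rho 0.697). By rho, 7 partners passed in KOWT, all but Egr3 and Egr4, and 2 in DKO, again Egr1 and Egr2. In WT-DKO 3 passed by rho, Fosb, Egr2 and Nr4a1 (rho 0.770, adjusted permutation p = 0.0469). Npas4 did not pass by rho there (adjusted permutation p = 0.0842). Among newborns, TKO had 2 of 9 partners that passed by r, Junb and Egr1, and WT-TKO had 2, Junb and Nr4a1. KOWTKO had 4 by r, of which Junb, Egr1 and Npas4 rose with Fos. The other, Nr4a1, ran against it (r -0.847, adjusted permutation p = 0.037). By rho, 0 partners passed for TKO, 0 for KOWTKO and the same 2 for WT-TKO. Whether these relations differ between groups was not tested. The share of all other genes that follow Fos in the same libraries was not determined, so the relations may not be particular to these genes.

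**Figure D5:**
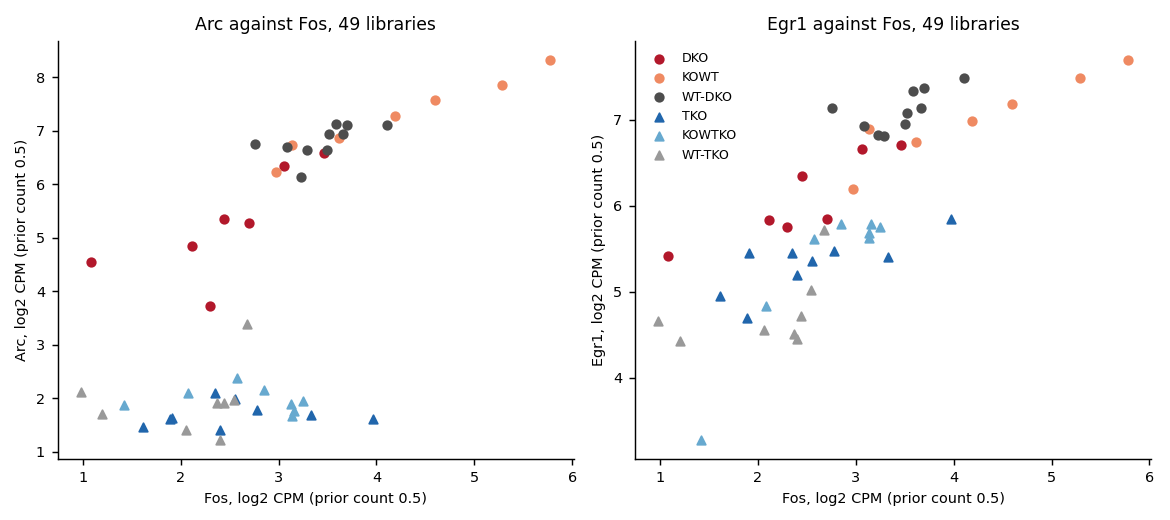
Arc (left) and Egr1 (right) against Fos in the 49 libraries, log2 CPM with a prior count of 0.5; circles are day 13 to 21, triangles day 0. KOWT libraries lie along a line in both panels, and at day 0 Arc stays low over the range of Fos.

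At birth none of the 8 genes that passed the filter on low counts was called between TKO and KOWTKO, where 5.09% of 15715 genes were (edgeR; 2 of the 8 had an unadjusted p under 0.05, and DESeq2 and limma-voom also called 0). Fos had a lowest, median and highest level of 3.04, 5.27 and 15.6 CPM in TKO, against 2.66, 7.96 and 9.47 CPM in KOWTKO. Its log2 fold change was -0.08, with a 95% interval of -0.70 to 0.55. Nr4a1 was measured most tightly, with 10.2, 11.7 and 14.1 CPM in TKO against 9.08, 10.8 and 14.7 CPM in KOWTKO. The interval of Nr4a1 ran from -0.13 to 0.26, which leaves out a change of the size seen in the older DKO. The intervals were -0.70 to 0.14 for Arc, -0.62 to 0.39 for Egr1, -0.49 to 0.42 for Egr2 and -0.38 to 0.38 for Npas4. Junb (-0.60 ± 0.28, adjusted p = 0.200) and Egr3 (-0.42 ± 0.20, adjusted p = 0.228) were the 2 with an unadjusted p under 0.05. Their intervals, -1.17 to -0.04 for Junb and -0.83 to -0.0058 for Egr3, hold the changes of the older DKO. Fosb and Egr4 failed the filter. Fosb had 0.162 to 1.06 CPM in TKO against 0.115 to 0.446 CPM in KOWTKO, and Egr4 had 0 to 0.363 CPM in TKO against 0.0633 to 0.741 CPM in KOWTKO. TKO replicate 6 had no Egr4 read, which allows up to 0.162 CPM (3 reads; counting error only). In a fit with no filter their log2 fold changes were 0.75 ± 0.43 for Fosb (adjusted p = 0.436) and -1.22 ± 0.45 for Egr4 (adjusted p = 0.156). The authors' deposited table listed the same 8 genes and had none with an adjusted p under 0.05.

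Against newborn wild types the calls went both ways. Of the 8 tested, 2 were called lower in TKO and 1 higher, where 12% of all genes tested were called lower and 10.8% higher. Egr3 had a median of 2.49 CPM in TKO against 4.41 CPM in WT-TKO (log2 fold change -0.73 ± 0.20, edgeR adjusted p = 0.00919), with 7 of 9 TKO libraries below all WT-TKO libraries. Npas4 had 1.20 CPM in TKO against 1.81 CPM in WT-TKO (-0.54 ± 0.18, adjusted p = 0.0316), and Egr2 1.69 CPM in TKO against 0.761 CPM in WT-TKO (0.81 ± 0.24, adjusted p = 0.0139). KOWTKO differed from WT-TKO in the same way for Npas4 (-0.54 ± 0.19, adjusted p = 0.0390) and Egr2 (0.85 ± 0.24, adjusted p = 0.0144), the 2 genes called there, where 10.5% of all genes were called lower and 10.5% higher. These comparisons share the WT-TKO libraries. Cell type markers were called as well. In TKO, 8 of 10 meningeal, 5 of 6 astrocyte, 4 of 7 microglia, 3 of 10 choroid plexus, 3 of 10 tested myelin, 3 of 11 tested excitatory and 3 of 8 tested inhibitory neuron genes were called lower and none of these lists had a gene called higher. The meningeal genes summed to 57.6 to 161 CPM in TKO against 95.6 to 472 CPM in WT-TKO, and their part in the values above was not tested. In both, the call of Npas4 was lost without WT-TKO replicate 1, 3 or 4. It was also lost without TKO replicate 1, 3, 4, 8 or 9 in the first comparison, and without KOWTKO replicate 1, 3, 5, 6, 7 or 8 or WT-TKO replicate 6 in the second. The authors' deposited table of TKO against wild types had 2 lower, Egr3 and Npas4, and 2 higher, Egr1 and Egr2.

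Whether the effect differed between the ages was tested as the log2 fold change of DKO over KOWT minus that of TKO over KOWTKO, in 1 fit of all 49 libraries. The 2 designs also differ in the Sh3gl3 knockout, which cannot be told apart from age. Of the 8 genes that passed the filter on low counts at both ages, it was more negative in the older pair for 5, where 4.78% of all genes were called lower. The difference was -1.87 ± 0.49 for Fos (edgeR adjusted p = 0.0136), -1.71 ± 0.50 for Egr2 (0.0261), -1.67 ± 0.37 for Npas4 (0.00285), -1.62 ± 0.44 for Arc (0.0155) and -1.30 ± 0.23 for Nr4a1 (0.000306), with adjusted p in brackets. Egr1 (-0.83 ± 0.33, adjusted p = 0.106), Junb (-0.21 ± 0.37) and Egr3 (-0.14 ± 0.24) did not pass. Fosb (-2.77 ± 0.59) and Egr4 (0.43 ± 0.45) failed the filter at birth and entered this fit through the older groups, so their differences are given with no test. Without the choroid-rich older libraries 1 of the 8 was called, Nr4a1 (-0.89).

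The older wild types expressed each of the 8 genes that passed the filter at both ages more than the newborn ones, in a comparison in which 39.5% of all genes were called higher. Arc had 70.4, 115 and 140 CPM (lowest, median, highest) in WT-DKO, against 2.33, 3.75 and 10.4 CPM in WT-TKO, a log2 fold change of 4.78 ± 0.29 (edgeR adjusted p = 3.2e-18). Junb had the next largest of the 8 (3.37 ± 0.26), and Fos (1.33 ± 0.33) and Egr2 (1.29 ± 0.36) had the smallest. Fosb averaged 3.57 ± 0.996 CPM in WT-DKO against 0.480 ± 0.481 CPM in WT-TKO, and Egr4 6.25 ± 1.03 CPM in WT-DKO against 0.224 ± 0.147 CPM in WT-TKO, with no test since both passed this fit's filter through the older groups. WT-DKO and WT-TKO were apart for 7 of the 8 genes, all but Egr2, and 25.9% of all genes were apart in this direction. WT-TKO replicate 8, whose myelin genes stood out, was the highest newborn wild type in 9 of the 10 genes.

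Per length of exon, the order of the levels changed between the ages. In WT-DKO, Arc (37.3 ± 7.30 CPM per kb) and Egr1 (31.1 ± 5.15) stood above Nr4a1 (17.3 ± 3.03), Junb (9.11 ± 2.67), Egr3 (6.31 ± 0.96), Fos (4.76 ± 1.23), Egr4 (2.91 ± 0.48), Npas4 (2.20 ± 0.72), Egr2 (0.651 ± 0.217) and Fosb (0.572 ± 0.160). The ranges of Egr1 and Nr4a1, of Nr4a1 and Junb and of Npas4 and Egr2 did not overlap, and those of the other neighbours did. In WT-TKO, Egr1 came first (6.29 ± 2.31 CPM per kb) with Nr4a1 (3.10 ± 0.51) next, then Fos (1.93 ± 0.69) and Arc (1.41 ± 0.84), and the ranges of the neighbours after Nr4a1 overlapped. In DKO, Egr1 (15.9 ± 5.44 CPM per kb) and Arc (15.0 ± 10.1) overlapped at the top. In KOWT, Arc (56.1 ± 27.8 CPM per kb) and Egr1 (30.5 ± 10.1) overlapped as well.

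Other genes of the activity response followed in part. The lists were drawn up with earlier results of these data known. Of 30 other immediate early genes, 13 were called lower in DKO than in KOWT, 0 higher and 17 not, where 10.6% of all genes were lower and 10.2% higher, with a median log2 fold change of -0.28 (all genes 0.00). Against WT-DKO, 9 of the 30 were called lower and 2 higher, Maff (0.81) and Sik1 (0.34). In DKO against KOWT, the 4 with the smallest p were Fosl2 (-0.72 ± 0.10), Homer1 (-0.59 ± 0.10), Gadd45b (-0.72 ± 0.13) and Dusp6 (-0.59 ± 0.11). Fosl2 encodes an AP-1 subunit, Homer1 a postsynaptic scaffold and Dusp6 a phosphatase of ERK kinases. Of 12 late activity-induced effectors, 6 were called lower in DKO than in KOWT and 0 higher (median -0.28). They were led by the neurotrophin gene Bdnf (-0.45 ± 0.08), Nrn1 (-0.31 ± 0.06), Inhba (-1.07 ± 0.21), which encodes an activin subunit, and Gpr3 (-0.72 ± 0.15), a receptor gene. Of 28 genes that carry the signal to these promoters, 7 were called lower in DKO than in KOWT and 1 higher, with a median of -0.02. Camkk2, a calcium-activated kinase gene, was lower (-0.59 ± 0.08), as were Elk1 (-0.38 ± 0.06) and Srf (-0.29 ± 0.06), whose products bind together at serum response elements, and Mef2a was higher (0.20 ± 0.05). At birth, TKO against KOWTKO had 1 of 29 other immediate early genes called, Btg2 (0.47), 0 of 12 late effectors and 1 of 28 signal genes, Map2k2 (-0.28), where 5.09% of all genes were called.

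Across the 24 older libraries, deviations from the group means were compared with the mean deviation of the 10 genes, over 13313 genes. The 6 most alike were Dusp5 (r 0.85), Dusp1 (0.79), Eed (0.78), Skp2 (0.77), Sik1 (0.73) and Bhlhe40 (0.73). Among the 10 genes themselves, pairs had a median r of 0.64 at the older age and 0.26 at day 0 among the 8 tested. Group means were taken out of these values, the libraries differ in depth, and each point is 1 library.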

How the data were processed

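Polyadenylated RNA of hippocampus was made into 49 libraries with a TruSeq kit, which keeps no strand. One deposited table gives the authors' raw whole-number counts, 1 per gene and library. The submitters' processing notes name CASAVA 1.8.2, STAR 2.3.0e, DESeq2 and build mm10, with no read counter or annotation. The authors' deposited tables of 4 comparisons hold mean signal (counts over size factors), log2 fold changes and p-values, per the file headers. RNA was extracted with either of 2 column kits, and no label says which was used for which library. Lines for reads outside genes were kept out of library sizes and tests; 8.89% to 17.5% of reads per library had no feature.

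Positions were taken from GENCODE M21 for the 36602 of 38355 genes whose identifiers matched. The test was edgeR 4.0.16 (R 4.3.3), with filterByExpr, TMM and a robust quasi-likelihood fit of the 3 groups of an age, or of all 6 groups for comparisons between ages, and Benjamini-Hochberg adjustment over all genes tested (threshold 0.05). DESeq2 1.42.0, limma-voom (limma 3.58.1), other size factors, no filter, a replicate block, a myelin covariate and subsets of libraries were alternatives. CPM were scaled by TMM over all libraries. SEs and 95% intervals come from the fit and include the spread between libraries, while the floor from counts covers counting error only. Not every pair of libraries with the same number varied together, so they were not paired. Within each group, every 2 libraries differed by more than sampling noise. The procedure was tested on simulated data.

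The 10 genes and all lists were chosen with earlier results of these data known. Named were these 10 genes, the endophilin genes, the 4 genes with the smallest p for DKO against KOWT in each of 3 activity lists, and the 6 other genes most like them over the older libraries, out of those that averaged 1 or more in log2 CPM.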

Additional observations from a re-analysis of the deposited data

Results flagged for a closer look

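Of 60 combinations of a gene and a group, 10 held a library whose gap to its nearest neighbour was large for the group's range by Dixon's test. For independent values with a normal distribution, chance gives this in about 1 in 20. CPM were tested without a log and several flagged values share a library, so 10 of 60 is not read against that rate. In WT-TKO replicate 8, Fosb (1.65 CPM), Arc (10.4 CPM) and Egr1 (52.4 CPM) stood above the rest of the group, and in KOWT replicate 3, Junb (39.7 CPM) and Npas4 (29.0 CPM). Egr2 stood high in DKO replicate 4 (4.17 CPM) and KOWTKO replicate 8 (2.32 CPM), Fosb in TKO replicate 2 (1.06 CPM) and KOWTKO replicate 4 (0.446 CPM), and Nr4a1 in WT-DKO replicate 6 (85.6 CPM).

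The effect of DKO over KOWT differed from that of TKO over KOWTKO by a test of the difference (log2) for Fos (-1.87), Arc (-1.62), Egr2 (-1.71), Npas4 (-1.67) and Nr4a1 (-1.30). Fosb (-2.77) failed the filter on low counts at birth and entered that fit through the older groups. Its difference is therefore given with no test.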

How the results depend on the processing

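Over all fits that left out 1 library, 10 to 10 of the 10 genes were called for DKO against KOWT, 6 to 9 against WT-DKO, 0 to 3 for KOWT against WT-DKO, 0 to 0 for TKO against KOWTKO, 2 to 4 against WT-TKO and 1 to 3 for KOWTKO against WT-TKO. The genes called in all ranged over 2548 to 3763, 3344 to 4517, 470 to 811, 330 to 1444, 2818 to 4154 and 2508 to 3972 in the same order, against 3347, 4203, 711, 800, 3595 and 3288 with all libraries. For TKO against KOWTKO the count of all genes was 1444 without KOWTKO replicate 7, 330 without KOWTKO replicate 5 and 425 to 484 without TKO replicate 8 or KOWTKO replicate 1, 2 or 3. For KOWT against WT-DKO it was 470 without KOWT replicate 3, and of the 10 genes 3 were called without KOWT replicate 2 or 5, 2 without KOWT replicate 6 and 0 without KOWT replicate 3 or 7.
For DKO against KOWT, DESeq2, limma-voom, DESeq2's size factors and no filter each kept 10 of 10. Choices made after seeing the data were leaving out the choroid-rich libraries (2 of 10), keeping only these (0 of 10 by edgeR, 10 with an unadjusted p under 0.05, and 7 genes in all) and leaving out WT-TKO replicate 8 or KOWTKO replicate 7. Genes called in all were 2228 with only the 2 groups, 1082 without and 2163 within the libraries low in Sh3gl3, and 1983 with the myelin covariate. For KOWT against WT-DKO, 0 of the 10 were called with no filter, limma-voom or the myelin covariate (3 with an unadjusted p under 0.05 in each) and without choroid-rich libraries (1), and 3 with DESeq2 or without the libraries low in Sh3gl3. For KOWTKO against WT-TKO, 1 was called with no filter or without KOWTKO replicate 3. For TKO against KOWTKO, genes called in all were 483 with no filter, 1246 with DESeq2, 471 without KOWTKO replicate 3 and 1444 without KOWTKO replicate 7. For the difference between the ages they were 883 with no filter and 666 without the choroid-rich libraries. They were 303 without the libraries low in Sh3gl3 and KOWTKO replicate 3. Without the choroid-rich libraries, 1 of the 8 genes that passed the filter at both ages was called, Nr4a1. The causes were not tested. No direction of a called gene reversed.
With the replicate number as a block, 8 of the 10 genes were called for DKO against KOWT and 0 for KOWT against WT-DKO (0 with an unadjusted p under 0.05), and genes called in all were 1969 for DKO against WT-DKO, 193 for TKO against KOWTKO and 2034 for TKO against WT-TKO. Deviations of same-numbered libraries correlated at -0.05 to 0.43 for DKO against KOWT, where 3 of 7 matched their own number best, and down to -0.28 in the other comparisons, so the numbers were not taken as pairs.
Depth limits Fosb and Egr4 at birth, which lay under 2 CPM in every newborn library.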
